A study of Mus musculus with 9 samples.

Results

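A set of 7 genes of steroid hormone action was followed across 3 genotypes. They comprised 3 nuclear receptors (Esr1, Pgr and Nr3c1), 2 receptor coactivators (Ncoa2 and Ncoa3) and 2 genes tied to the hormone response (Greb1 and Cited1). They were chosen by name, with earlier results of these data known, as 7 of the 55450 genes in the count table. All 7 were among the 19357 genes that passed the filter on low counts. RNA sequencing was performed on EYFP+ mammary cells isolated by FACS from adult nulliparous mice, which the study's methods place at over 12 weeks of age. Every mouse, controls included, carried the lsl-EYFP reporter and the K8CreERT2 transgene, a tamoxifen-activated Cre recombinase driven by the Krt8 promoter, and every mouse received 2 mg of tamoxifen on each of 5 days, with the sort 7 days after the last dose. Tamoxifen is itself a ligand of the estrogen receptor, so a state without it was not sampled in any group. The control genotype was lsl-EYFP;K8CreERT2. The group called LATS1/2-KO after its label had the floxed alleles LATS1/2f/f in addition, and the group called LATS1/2-Sox9-KO had both LATS1/2f/f and Sox9f/f in addition. Each group held 3 libraries. The labels do not say whether each library came from its own mouse, so the p-values measure the spread between these libraries. Total counts ranged from 44167762 to 61967651 per library.

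Steroid hormones act through nuclear receptors, which bind DNA once the ligand is bound and recruit coactivators such as the p160 proteins encoded by Ncoa2 and Ncoa3. In the mammary gland, the estrogen receptor (Esr1) and the progesterone receptor (Pgr) are found in a subset of luminal cells, the hormone-sensing cells, which relay the signal to neighbouring cells through secreted factors. The Pgr and Greb1 genes are textbook estrogen receptor targets, Cited1 encodes a transcriptional co-regulator of hormone-sensing cells, and Nr3c1 encodes the glucocorticoid receptor, which is present in most cell types.

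The promoters of Pgr, Greb1 and Cited1 are shown because these are the genes with the largest decreases of the 7. Each run is the 250 bases before a RefSeq start site on GRCm38.p6, 5′ to 3′ on the strand of the gene, and overlaps no annotated exon. Capitals mark a match to one of 7 searched motifs. In Greb1 (chr12:16800887-16801136, minus strand) the capitals mark the hexamer AGGTCA, bound by one subunit of the estrogen receptor and of other nuclear receptors, read on the opposite strand. In Pgr (chr9:8899583-8899832, plus strand) and in Cited1 (chrX:102252182-102252431, minus strand) they mark a GC box, GGGCGG, which in Cited1 is read on the opposite strand.
Pgr: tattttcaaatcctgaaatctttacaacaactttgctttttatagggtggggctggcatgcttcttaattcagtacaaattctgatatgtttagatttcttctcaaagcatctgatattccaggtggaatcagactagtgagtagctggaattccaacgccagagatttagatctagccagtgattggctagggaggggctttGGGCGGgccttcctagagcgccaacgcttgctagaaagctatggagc
Greb1: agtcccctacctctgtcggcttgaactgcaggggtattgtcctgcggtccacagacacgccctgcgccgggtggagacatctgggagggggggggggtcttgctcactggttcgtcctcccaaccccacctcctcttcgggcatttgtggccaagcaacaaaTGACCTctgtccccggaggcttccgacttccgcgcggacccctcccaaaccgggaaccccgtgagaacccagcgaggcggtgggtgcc
Cited1: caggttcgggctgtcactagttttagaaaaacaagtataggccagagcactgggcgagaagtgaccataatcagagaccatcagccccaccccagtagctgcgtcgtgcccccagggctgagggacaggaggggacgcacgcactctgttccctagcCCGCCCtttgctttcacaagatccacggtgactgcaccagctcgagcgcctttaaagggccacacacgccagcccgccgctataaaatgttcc
The hexamer lay 88 to 83 bases before the Greb1 start, and the GC boxes lay 47 to 42 bases before the Pgr start and 93 to 88 bases before the Cited1 start. Both strands were searched. Windows of other start sites of Cited1 and Greb1, which overlap annotated exons and are not printed, were searched too, and one of Cited1 held the hexamer 217 to 212 bases before its start. Of 32536 RefSeq promoter windows of the same length, 14.0% held the hexamer and 33.0% the GC box. The core of the full palindromic estrogen response element was found in 0.1% of all windows and in none of the 3 shown. The 3 windows also held no match to the progesterone and glucocorticoid receptor hexamer TGTTCT, which 16.0% of all windows held. The forkhead motif TGTTTAC, held by 3.2% of windows, was absent from them as well. The same was true of AGATAA, the motif of the zinc finger factors that include Gata3 (10% of windows), and of the TEAD motif GGAATG (12.6% of windows), although an Esr1 window that is not printed held the TEAD motif 183 to 178 bases before its start. The full element contains the AGGTCA hexamer only where the letters beside the core allow it. The GC content of the windows was 43.6% for Pgr, 65.2% for Greb1 and 58.0% for Cited1. These matches describe the letters alone and were not tested for binding.

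The targeted genes were checked against the labels. Lats1 had normalized counts of 5672 to 5940 in control libraries, 1923 to 2336 in LATS1/2-KO libraries and 1709 to 2058 in LATS1/2-Sox9-KO libraries. Normalized counts were brought to one common library size, the mean over the 9 libraries after TMM scaling. Lats2 went against its label, with 865 to 1220 in control, 1256 to 1723 in LATS1/2-KO and 1240 to 1957 in LATS1/2-Sox9-KO libraries. Sox9 was lower in both deletion groups than in control, but did not pass the test between the deletion groups (log2 fold change -0.40, adjusted p = 0.250, quasi-likelihood test of edgeR, Benjamini-Hochberg adjusted). Counts per gene do not show which exons were removed. The group names below therefore stand for the libraries so labelled, and directions drawn from them rest on the labels.

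The sorted cells carried luminal keratins in every library. The summed normalized count of Krt8, Krt18, Krt19 and Epcam was 711000 to 804000 in control, 830100 to 876200 in LATS1/2-KO and 1266000 to 1457000 in LATS1/2-Sox9-KO libraries. The hormone-sensing luminal markers (Prlr, Foxa1, Ly6a, Prom1, Areg, Wnt4 and Gata3) summed to 266700, 240000 and 347800 in control replicates 1 to 3 and to 35520, 22830 and 24020 in LATS1/2-KO replicates 1 to 3. In the LATS1/2-Sox9-KO replicates they summed to 71720, 56160 and 50130, of which Ly6a alone made up 57360, 44240 and 34800. Against control, 6 of these 7 markers passed as lower in LATS1/2-KO, and in LATS1/2-Sox9-KO 6 passed as lower and Ly6a as higher. Over all 19357 tested genes, 27.1% and 28.7% passed as lower in these comparisons.

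Against control, the libraries labelled LATS1/2-KO had less of both sex steroid receptors and of both hormone response genes (Esr1 11.3-fold and Pgr 60.0-fold lower), less of the coactivators Ncoa2 and Ncoa3, and more Nr3c1 (2.15-fold higher). All 7 genes passed the test, 1 higher and 6 lower, where 55.7% of the 19357 tested genes passed, 28.7% as higher and 27.1% as lower. Of these, 6 were also called at more than a 2-fold change, 5 lower and 1 higher, against 34.6% of all tested genes (17.5% lower and 17.1% higher). The libraries of the groups did not overlap for any of the 7, as for 61.6% of tested genes. The median log2 fold change was -3.50 over the 7 genes and 0.04 over all tested genes. Esr1, Pgr and Cited1 are among the luminal genes that the study named from these libraries, so their direction is not independent evidence. All 7 genes and all gene lists were chosen with earlier results of these data known. Their counts against the shares over all tested genes are therefore not independent evidence either. In sorted bulk cells, fewer cells of a type and less RNA per cell cannot be told apart.

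**Figure D1:**
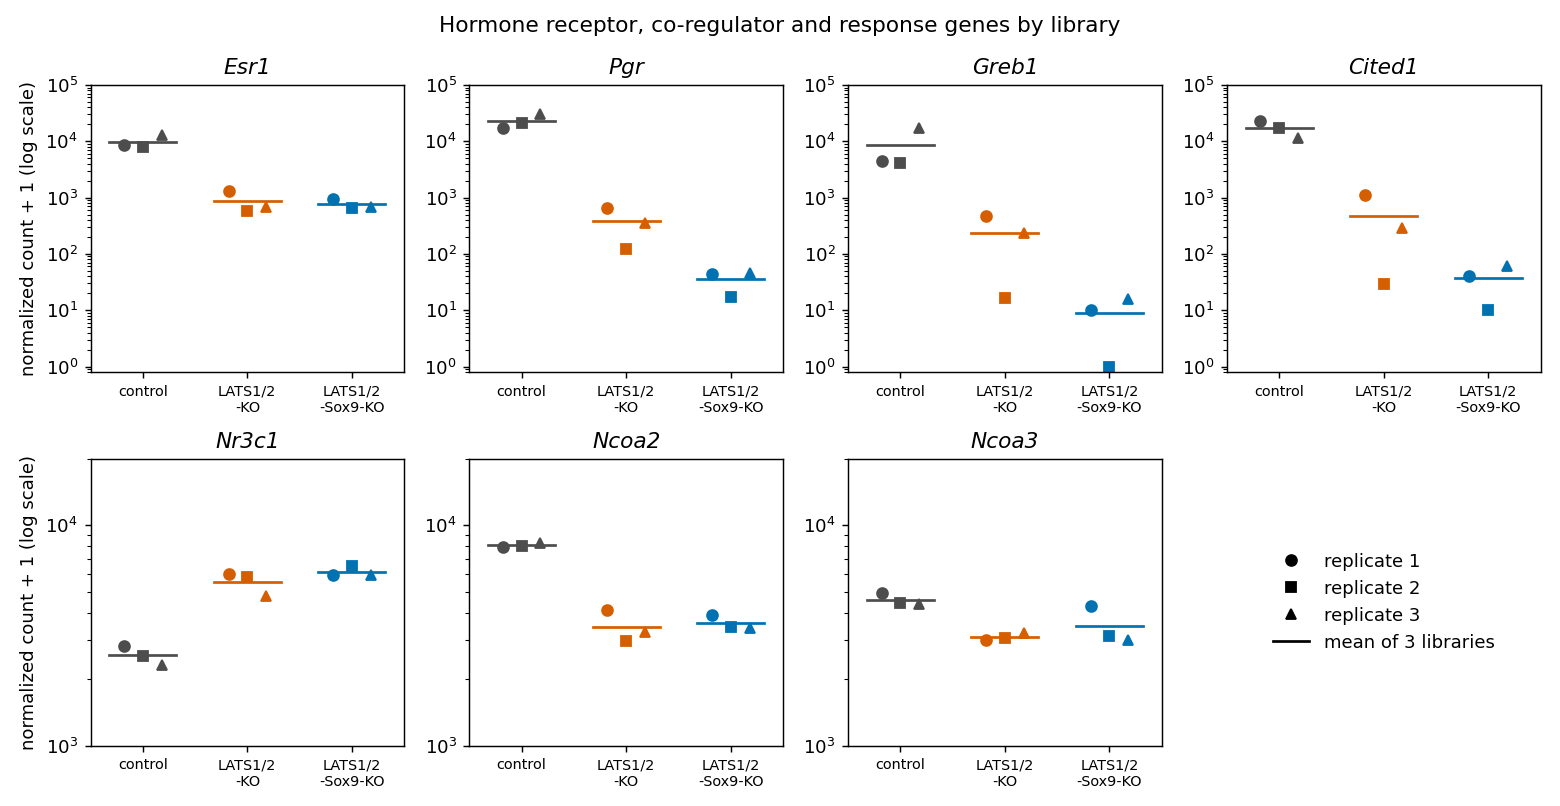
Normalized counts plus 1, on a log axis, of the 7 genes in the 9 libraries, with 3 libraries per genotype (circle, square and triangle for replicates 1, 2 and 3) and a line at each mean. Esr1, Pgr, Greb1 and Cited1 fell below every control library in both deletion groups, Nr3c1 lay above, and LATS1/2-KO replicate 1 was highest and replicate 2 lowest of its group in the upper row.

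Esr1 encodes estrogen receptor alpha (ENSMUSG00000019768, chr10:4611593-5005614, plus strand, GRCm38). Its normalized counts were 8515, 8019 and 12660 in control replicates 1 to 3, 1315, 587 and 685 in LATS1/2-KO, and 944, 658 and 690 in LATS1/2-Sox9-KO. Each deletion library lay several-fold below the lowest control library, and the deletion groups lay on top of each other. The log2 fold change from control was -3.50 (SE, the standard error of the log2 fold change, 0.33, 11.3-fold lower, adjusted p = 1.93e-05 by the quasi-likelihood test of edgeR, Benjamini-Hochberg adjusted) in LATS1/2-KO and -3.67 (SE 0.33, 12.7-fold lower, adjusted p = 1.13e-05) in LATS1/2-Sox9-KO, from comparisons that share the 3 control libraries.

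Pgr encodes the progesterone receptor (ENSMUSG00000031870, chr9:8899833-8968611, plus strand). Its normalized counts were 17140, 20900 and 30020 in control, 658, 121 and 358 in LATS1/2-KO, and 43.6, 15.9 and 44.6 in LATS1/2-Sox9-KO. The 3 groups formed 3 separate ranges, in that order. The fold change from control was -5.91 on the log2 scale in LATS1/2-KO (SE 0.60, 60.0-fold lower, adjusted p = 2.99e-05 by edgeR, Benjamini-Hochberg adjusted), or -6.56 without LATS1/2-KO replicate 1. In LATS1/2-Sox9-KO it was -9.34 (SE 0.72, 646-fold lower, adjusted p = 4.48e-06 in the same test).

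Greb1 (ENSMUSG00000036523, chr12:16670615-16800886, minus strand) encodes an estrogen-induced cofactor of the estrogen receptor. Control replicates 1 to 3 had 4498, 4184 and 17220 normalized counts, LATS1/2-KO 461, 15.3 and 230, and LATS1/2-Sox9-KO 9.28, 0 and 14.6. Control replicate 3 stood 4.12-fold above the lowest control library, and the LATS1/2-KO libraries spread over 30.3-fold. The log2 fold change was -5.20 (SE 1.03, adjusted p = 0.00177, edgeR, Benjamini-Hochberg adjusted) in LATS1/2-KO and -10.03 (SE 1.37, adjusted p = 0.000157) in LATS1/2-Sox9-KO. Without control replicate 3 these were -4.23 and -9.03, without LATS1/2-KO replicate 1 the first was -6.14, and without LATS1/2-Sox9-KO replicate 3 the second was -10.77. With raw counts of 10, 0 and 16 in LATS1/2-Sox9-KO, the size of the second is loosely bounded (95% interval -13.10 to -6.97). Greb1 shares 736 exon bases with the antisense gene Gm48140, whose normalized counts were 8.12, 9.07 and 48.5 in control and 0 in every deletion library. The study's methods state same-strand counting, whereas a standard TruSeq RNA kit, as named in the labels, does not mark strand, so the assignment of reads from the shared bases is uncertain.

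Cited1 (ENSMUSG00000051159, chrX:102247381-102252181, minus strand) had 22590, 17310 and 11470 normalized counts in control, 1104, 28.0 and 286 in LATS1/2-KO, and 39.0, 8.97 and 60.1 in LATS1/2-Sox9-KO. Control replicate 3, the highest for Esr1, Pgr and Greb1, was the lowest for Cited1. The LATS1/2-KO libraries spread over 39.5-fold, the widest of the 7 genes in that group, and their lowest library lay inside the LATS1/2-Sox9-KO range. The log2 fold change was -5.19 (SE 1.02, 36.4-fold lower, adjusted p = 0.00175, edgeR, Benjamini-Hochberg adjusted) in LATS1/2-KO, or -6.77 without LATS1/2-KO replicate 1, and -8.87 (SE 1.24, 469-fold lower, adjusted p = 0.000183) in LATS1/2-Sox9-KO.

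Nr3c1, the glucocorticoid receptor gene (ENSMUSG00000024431, chromosome 18, 39410545 to 39519421, minus strand), moved the other way. Its normalized counts were 2840, 2563 and 2315 in control, 6008, 5815 and 4795 in LATS1/2-KO, and 5959, 6513 and 5952 in LATS1/2-Sox9-KO. All deletion libraries exceeded all control libraries, and the widest spread within a group was 1.25-fold, in LATS1/2-KO. The increase was 2.15-fold in LATS1/2-KO (log2 fold change 1.11, SE 0.12, adjusted p = 4.7e-05, edgeR, Benjamini-Hochberg adjusted, 95% interval 0.84 to 1.38). In LATS1/2-Sox9-KO it was 2.39-fold (log2 fold change 1.25, SE 0.12, adjusted p = 1.7e-05 in the same test). When the null was set at a 2-fold change (glmTreat of edgeR, Benjamini-Hochberg adjusted), the increase in LATS1/2-KO did not pass (adjusted p = 0.241). With a GC offset the log2 fold changes were 0.71 and 0.92, which passed the test but stayed under a 2-fold change.

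Both coactivators were lower. Ncoa2, also known as TIF2 or GRIP1 (ENSMUSG00000005886, chr1:13139105-13374083, minus strand), had 7947, 8046 and 8259 normalized counts in control, 4112, 2987 and 3287 in LATS1/2-KO, and 3921, 3456 and 3419 in LATS1/2-Sox9-KO. The control libraries of Ncoa2 lay within 1.04-fold of each other, and the deletion groups overlapped each other well below them. Its decreases were 2.34-fold (log2 fold change -1.22, SE 0.13, adjusted p = 3.6e-05) and 2.25-fold (-1.17, SE 0.13, adjusted p = 3.8e-05), both by edgeR, Benjamini-Hochberg adjusted, and neither passed against a null of a 2-fold change (adjusted p = 0.069 and 0.119). Ncoa3, also known as AIB1 or SRC-3 (ENSMUSG00000027678, chr2:165992636-166073242, plus strand), had 4914, 4414 and 4373 in control, 3025, 3065 and 3229 in LATS1/2-KO, and 4310, 3127 and 3006 in LATS1/2-Sox9-KO. LATS1/2-Sox9-KO replicate 1 came close to the lowest control library. Ncoa3 passed the test in LATS1/2-KO (log2 fold change -0.56, SE 0.14, adjusted p = 0.00728, edgeR, Benjamini-Hochberg adjusted) and in LATS1/2-Sox9-KO (-0.39, SE 0.14, adjusted p = 0.0359), without reaching a 2-fold change in either. The latter no longer passed on leaving out any control library, and also on leaving out LATS1/2-KO replicate 2 or 3 or LATS1/2-Sox9-KO replicate 2 or 3 (log2 fold change -0.42 to -0.28). Ncoa3 shares 154 exon bases with the opposite-strand gene Sulf2, which had a mean of 9883 normalized counts in control, 8573 in LATS1/2-KO and 4808 in LATS1/2-Sox9-KO.

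In the comparison of LATS1/2-Sox9-KO with control all 7 genes again passed, 1 higher and 6 lower, beside 29.3% and 28.7% of tested genes (57.9% in either direction), and 6 were called at more than a 2-fold change beside 37.4%, which divides into 17.8% higher and 19.6% lower. The libraries of no gene of the 7 overlapped between these groups, as for 68.8% of tested genes.

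The libraries labelled LATS1/2-Sox9-KO were compared directly with those labelled LATS1/2-KO, a comparison in which Sox9 itself did not pass the test. Of the 7 genes, Pgr alone passed the test, lower in LATS1/2-Sox9-KO, where 6.45% of tested genes passed, 3.13% as higher and 3.33% as lower. Pgr was also the only one called at more than a 2-fold change, against 3.71% of tested genes (1.55% higher and 2.16% lower). Pgr was 10.8-fold lower than in LATS1/2-KO (log2 fold change -3.43, SE 0.60, adjusted p = 0.0136 by the quasi-likelihood test of edgeR, Benjamini-Hochberg adjusted, 95% interval -4.77 to -2.09). Leaving out LATS1/2-Sox9-KO replicate 2 gave -3.06 with adjusted p = 0.0589 in edgeR, Benjamini-Hochberg adjusted, and leaving out LATS1/2-KO replicate 1 gave -2.77 with adjusted p = 0.0157. Greb1 had a log2 fold change of -4.83 (SE 1.27, adjusted p = 0.0533) and Cited1 of -3.69 (SE 1.06, adjusted p = 0.0700), both short of the threshold in edgeR, Benjamini-Hochberg adjusted, with 95% intervals of -7.67 to -1.98 and -6.05 to -1.32. Both passed under DESeq2 (adjusted p = 0.00712 and 0.0127) and, in edgeR, Benjamini-Hochberg adjusted, with no filter on low counts. With LATS1/2-KO replicate 1 left out, the log2 fold change was -3.88 for Greb1 and -2.09 for Cited1, and with LATS1/2-Sox9-KO replicate 3 left out it was -5.55 for Greb1. Against a null of a 2-fold change, Pgr did not pass either (adjusted p = 0.124 by glmTreat of edgeR, Benjamini-Hochberg adjusted). With the replicate number as a block, Greb1 passed (-4.69, adjusted p = 0.0393 in edgeR, Benjamini-Hochberg adjusted), although the labels do not say that the numbers pair the libraries. The libraries of the deletion groups did not overlap for Pgr and Greb1, as for 27.9% of tested genes, whereas those of Cited1 did.

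For the remaining 4 genes no difference between the deletion genotypes was detected. The 95% interval of the log2 fold change was -0.85 to 0.50 for Esr1, -0.12 to 0.42 for Nr3c1, -0.23 to 0.34 for Ncoa2 and -0.15 to 0.48 for Ncoa3. For Esr1 the interval reaches almost a 2-fold decrease, so a moderate difference could have been missed. The plot of fold changes sets these intervals beside the wide ones of Greb1 and Cited1.

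**Figure D2:**
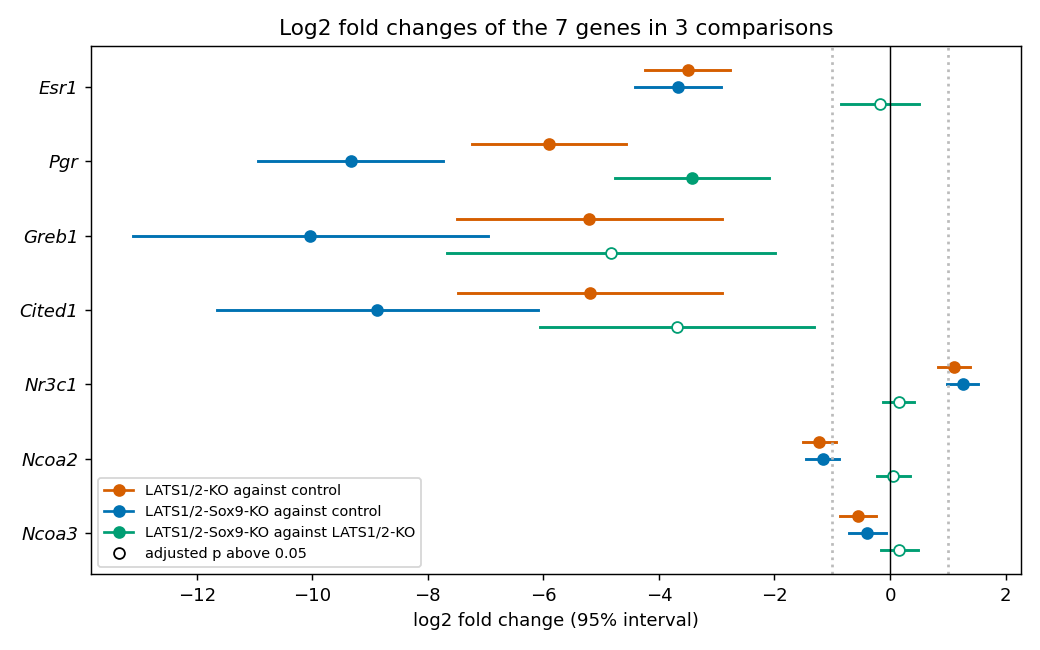
Log2 fold changes of the 7 genes (points) with 95% intervals (lines) in 3 comparisons, with open points for an adjusted p above 0.05 and dotted lines at a 2-fold change. Against LATS1/2-KO, the log2 fold change of Pgr in LATS1/2-Sox9-KO was -3.43 with an interval clear of 0, and those of Esr1, Nr3c1, Ncoa2 and Ncoa3 lay near 0.

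Levels per length set the genes against each other. In RPKM, counts scaled for annotated exon length and effective library size, the order in control was Cited1 (181 ± 58.9, SD, n = 3), Pgr (49.3 ± 14.4), Greb1 (16.7 ± 14.4), Esr1 (13.2 ± 3.47), Ncoa3 (10.8 ± 0.71), Ncoa2 (9.60 ± 0.19) and Nr3c1 (6.22 ± 0.64). The libraries of Esr1 overlapped those of Ncoa3. The third place of Greb1 rested on control replicate 3 (33.4 RPKM), since replicates 1 and 2 (8.72 and 8.12 RPKM) lay below every control library of Esr1, Ncoa3 and Ncoa2. In LATS1/2-KO, Nr3c1 led with 13.4 ± 1.57 RPKM (SD, n = 3), above Ncoa3 (7.31 ± 0.26), Cited1 (5.0 ± 5.95) and Ncoa2 (4.11 ± 0.69). The libraries of Cited1, at 0.296 to 11.7 RPKM, overlapped those of all 6 other genes, so its place is not fixed. The lowest means were those of Esr1 (1.17 ± 0.54), Pgr (0.82 ± 0.58) and Greb1 (0.46 ± 0.43), each overlapping the next. In LATS1/2-Sox9-KO the order was Nr3c1 (14.9 ± 0.78), Ncoa3 (8.19 ± 1.70), Ncoa2 (4.27 ± 0.33), Esr1 (1.04 ± 0.21), Cited1 (0.38 ± 0.27), Pgr (0.076 ± 0.035) and Greb1 (0.015 ± 0.014), with overlap only between Cited1 and Pgr. Nr3c1, the lowest of the 7 in control, was therefore the highest in both deletion groups, and Pgr went from above Esr1 to below it.

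The other steroid receptors moved in both directions. Of 12 listed, 3 rose, 5 fell and 4 did not pass in each control comparison, beside 55.7% and 57.9% of all tested genes that passed. Nr3c2, the mineralocorticoid receptor and closest relative of Nr3c1, fell from 2268, 2584 and 2734 to 430, 324 and 192 in LATS1/2-KO (log2 fold change -3.01, SE 0.27, adjusted p = 1.48e-05, edgeR, Benjamini-Hochberg adjusted) and to 231, 217 and 178 in LATS1/2-Sox9-KO (-3.60, adjusted p = 4.7e-06). The pair thus changed in opposite directions, with no deletion library overlapping a control library for either gene. In RPKM, Nr3c2 stood at 7.26 beside 6.22 for Nr3c1 in control, and at 0.90 beside 13.4 in LATS1/2-KO.

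Esr2, estrogen receptor beta, had 0 counts in every control library. It had 8.02, 16.9 and 11.9 normalized counts in LATS1/2-KO and 6.50, 24.9 and 19.1 in LATS1/2-Sox9-KO, which is at least 3.47-fold and 4.76-fold higher against a floor of 3 counts per control library, at levels of 0.068 and 0.093 RPKM. The membrane progesterone-binding proteins Pgrmc1 and Pgrmc2 were the most counted of the list. Pgrmc1 had a log2 fold change of 0.31 in LATS1/2-KO (adjusted p = 0.0376, edgeR, Benjamini-Hochberg adjusted), which did not pass on leaving out control replicate 1 or 2, LATS1/2-KO replicate 2 or 3 or LATS1/2-Sox9-KO replicate 2 or 3 (0.24 to 0.32), nor with RLE factors, no filter on low counts, the replicate block or a GC offset (0.018 with the last), and Pgrmc2 of 0.08 (adjusted p = 0.580). The estrogen-related receptor Esrra did not pass in either comparison (log2 fold changes -0.33 and 0.15), but passed in LATS1/2-KO without LATS1/2-KO replicate 1 (-0.47).

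**Figure D3:**
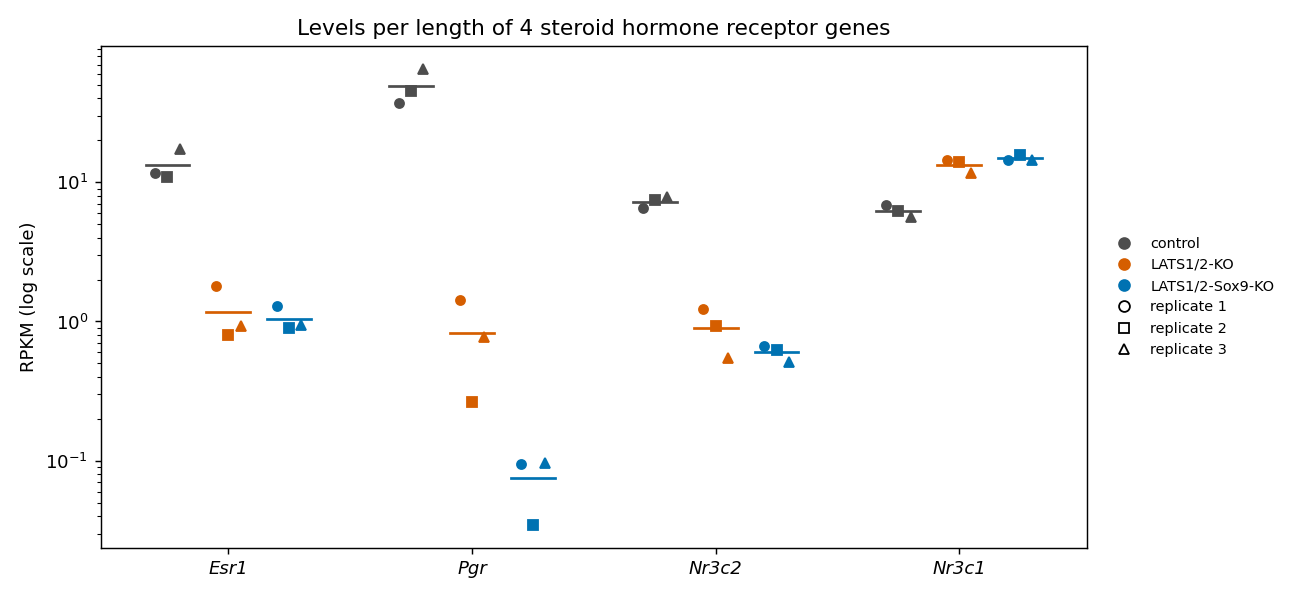
RPKM on a log axis of 4 steroid hormone receptor genes in the 3 genotypes, with a point per library and a line at each mean. Esr1, Pgr and Nr3c2 were lower in every deletion library than in every control library, and Nr3c1 was higher, reaching 13.4 and 14.9 RPKM.

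Estrogen response genes beyond the 7 fell more often than they rose. Of 22 listed, 20 were tested, and 4 rose, 10 fell and 6 did not pass in LATS1/2-KO (median log2 fold change -1.02, against 0.04 over all tested genes), while 5 rose, 12 fell and 3 did not pass in LATS1/2-Sox9-KO. Over all tested genes, 27.1% and 28.7% passed as lower. Areg, the amphiregulin ligand through which hormone-sensing cells signal to their neighbours, had 21130, 14830 and 41860 normalized counts in control, 4763, 903 and 2523 in LATS1/2-KO and 2772, 2643 and 3001 in LATS1/2-Sox9-KO (log2 fold changes -3.25 and -3.21, adjusted p = 0.000768 and 0.000733, edgeR, Benjamini-Hochberg adjusted), the first of which was -3.92 without LATS1/2-KO replicate 1. Among the other 3 most counted, the lysosomal protease gene Ctsd rose (log2 fold change 0.998, adjusted p = 0.0024 in LATS1/2-KO, edgeR, Benjamini-Hochberg adjusted), as did Ccn5, a matricellular protein gene (3.04, adjusted p = 1.3e-05). The cell cycle gene Ccnd1 did not pass in LATS1/2-KO (0.32, adjusted p = 0.280, edgeR, Benjamini-Hochberg adjusted) and rose in LATS1/2-Sox9-KO (0.83, adjusted p = 0.0128). Genes under this heading therefore moved in both directions.

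Of 6 progesterone response genes, 4 fell in both comparisons and 2 did not pass, with median log2 fold changes of -2.58 and -2.34, where 27.1% and 28.7% of all tested genes passed as lower. Prlr, the prolactin receptor, fell from 175200, 152400 and 201200 normalized counts in control to 11400, 2654 and 4854 in LATS1/2-KO (log2 fold change -4.81, SE 0.50, adjusted p = 3.61e-05, edgeR, Benjamini-Hochberg adjusted) and to 1774, 1953 and 2987 in LATS1/2-Sox9-KO. LATS1/2-KO replicate 1 was again the highest of its group, and the log2 fold change was -5.55 without it. Wnt4, a secreted ligand that acts downstream of progesterone, fell in both (log2 fold changes -1.90 and -1.47), as did Calca, the calcitonin gene (-5.52 and -7.73). Control replicate 3 had 295 normalized counts of Calca beside 7428 and 5280 in the other two, close to the 223 of LATS1/2-KO replicate 3. The log2 fold changes of Calca were -4.89 and -7.09 without control replicate 1, and the first was -7.17 without LATS1/2-KO replicate 3. Prlr, Areg and Wnt4 are also in the list of hormone-sensing markers, and Areg is in the list of estrogen response genes too. These counts are therefore not separate from those of either list.

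Of 15 tested glucocorticoid response genes, 5 rose, 4 fell and 6 did not pass in LATS1/2-KO, and 5 rose, 5 fell and 5 did not pass in LATS1/2-Sox9-KO, with median log2 fold changes of -0.27 and -0.33. These counts were near the shares over all tested genes (28.7% higher and 27.1% lower in LATS1/2-KO, 29.3% and 28.7% in LATS1/2-Sox9-KO). Sgk1, a kinase gene induced by both corticosteroid classes, had 44600, 43740 and 73120 normalized counts in control, 135800, 217400 and 184300 in LATS1/2-KO and 204800, 212700 and 201400 in LATS1/2-Sox9-KO (log2 fold change 1.74 in LATS1/2-KO, SE 0.23, adjusted p = 0.000131, edgeR, Benjamini-Hochberg adjusted). The phosphatase gene Dusp1 rose too (0.98 and 1.61). Nfkbia, the inhibitor of NF-kappa-B, passed in neither comparison (-0.33 and -0.48), although in LATS1/2-Sox9-KO it passed as lower under 6 alternatives and was -0.76 without LATS1/2-Sox9-KO replicate 1, and in LATS1/2-KO it passed without that library (-0.33). Errfi1, an inhibitor of EGF receptor signalling, passed in LATS1/2-Sox9-KO (-1.49, adjusted p = 0.00115, edgeR, Benjamini-Hochberg adjusted) and not in LATS1/2-KO (-0.60), where it did pass under 4 alternatives, among them DESeq2 (-0.63) and the fit without LATS1/2-Sox9-KO replicate 1 (-0.61). The difference between the deletion groups did not pass (-0.89, adjusted p = 0.0863, edgeR, Benjamini-Hochberg adjusted). Singled out after their values were seen, Tsc22d3 and Fkbp5 rose (log2 fold changes 1.63 and 1.09) and Per1 and Cebpd fell (-1.24 and -1.29) in LATS1/2-KO.

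**Figure D4:**
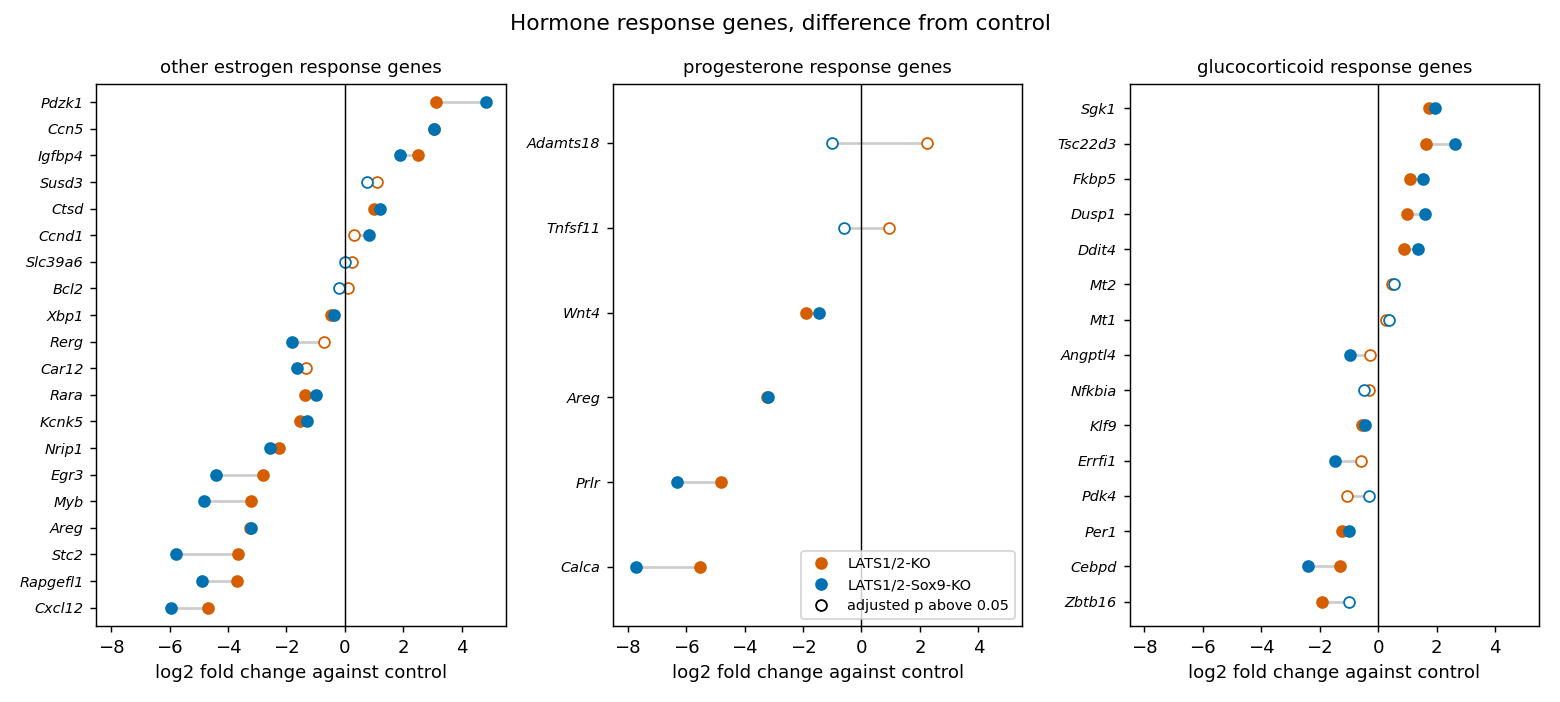
Log2 fold changes from control of the tested estrogen, progesterone and glucocorticoid response genes in LATS1/2-KO and LATS1/2-Sox9-KO, joined by a line for each gene, with open points for an adjusted p above 0.05. Each list held genes on both sides of 0 in LATS1/2-KO, from Calca at -5.52 to Ccn5 at 3.04 among the genes named in the text.

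Co-regulators and chaperones of the receptors went in different directions. Of 20 other coactivators and corepressors, 3 rose, 11 fell and 6 did not pass in each control comparison (median log2 fold changes -0.42 and -0.51), where 27.1% and 28.7% of all tested genes passed as lower. Nrip1, a corepressor that estrogen induces, fell from 22260, 19370 and 23440 normalized counts to 5396, 3771 and 4576 in LATS1/2-KO (log2 fold change -2.24, SE 0.15, adjusted p = 3.5e-06, edgeR, Benjamini-Hochberg adjusted). The corepressor gene Ncor1 (-0.57) fell as well, and the arginine methyltransferase gene Prmt1 rose (0.92). Of 10 chaperones of the receptor complex, 6 rose, 1 fell and 3 did not pass in each control comparison, where 28.7% and 29.3% of all tested genes passed as higher. Hsp90aa1 (log2 fold change 1.13, adjusted p = 1.21e-05, edgeR, Benjamini-Hochberg adjusted) and Hspa8 (1.15, adjusted p = 2.25e-05) rose in LATS1/2-KO, whereas Hsp90ab1 (0.08) and Hspa4 (0.06, or -0.14 with a GC offset) did not pass. Within the CITED family, Cited2 moved opposite to Cited1. It had 1756, 1937 and 2005 normalized counts in control, 11110, 17780 and 20790 in LATS1/2-KO and 28850, 17760 and 14190 in LATS1/2-Sox9-KO (log2 fold change 3.12 in LATS1/2-KO, SE 0.30, adjusted p = 2.01e-05, edgeR, Benjamini-Hochberg adjusted). In RPKM, Cited1 and Cited2 stood at 181 and 14.4 in control and at 5.0 and 125 in LATS1/2-KO. Cited4 did not pass in LATS1/2-KO (0.37) and was lower in LATS1/2-Sox9-KO than in LATS1/2-KO (-1.18, adjusted p = 0.0323, edgeR, Benjamini-Hochberg adjusted), a call lost on leaving out control replicate 2 or any deletion library other than LATS1/2-KO replicate 1 (log2 fold change -1.28 to -1.005), with the replicate block (-1.14) and with a GC offset (-1.04).

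For each of the 7, the most similar genes were taken as those with the smallest root mean square difference of centred log2 profiles over the 9 libraries, among 11861 candidates. The nearest to Esr1 was Ldhd (0.21), to Pgr Slc7a2 (0.40), to Cited1 Ptn (0.49), to Nr3c1 Stard3nl (0.07), to Ncoa2 Dst (0.07) and to Ncoa3 Tgif1 (0.05). The nearest to Greb1 was Pgr itself, at 0.90. The distance is not scaled to the size of a gene's changes, so it does not rank how closely different genes were followed. Snorc and Ptn were among the 3 nearest to both Greb1 and Cited1. Ptn, a secreted growth factor gene, had 166700, 158500 and 130400 normalized counts in control, 11590, 451 and 1858 in LATS1/2-KO and 191, 118 and 398 in LATS1/2-Sox9-KO, and like Cited1 it was highest in LATS1/2-KO replicate 1 and lowest in LATS1/2-KO replicate 2 of its group. Hspa8, from the chaperone list, was the third nearest to Nr3c1 (0.09).

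Within the LATS1/2-KO group, replicate 1 was the highest and replicate 2 the lowest for Esr1, Pgr, Greb1, Cited1 and Ncoa2. The same order held for 5 of the 7 hormone-sensing markers (Prlr, Areg, Wnt4, Foxa1 and Prom1), but not for Ly6a, with 7714, 14540 and 7287 normalized counts in replicates 1 to 3, nor for Gata3, with 1905, 2113 and 3416. Foxa1, a pioneer factor of estrogen receptor binding, had 2584, 881 and 2053 normalized counts in these libraries and 25020, 20980 and 19010 in control. In LATS1/2-Sox9-KO, replicate 2 was likewise the lowest for Esr1, Pgr, Greb1 and Cited1, but replicate 3 for Ncoa2. Replicate 1 was the highest there for Esr1 and Ncoa2, and replicate 3 for Pgr, Greb1 and Cited1. Markers of other cells also differed between the libraries. The secretory luminal markers (10 genes) summed to 216200 to 495700 in control, 148100 to 159600 in LATS1/2-KO and 75310 to 86660 in LATS1/2-Sox9-KO. The basal markers (7 genes) summed to 4085 to 5306, 152200 to 262800 and 121900 to 356200, of which Krt14 made up 139500 to 253000 in LATS1/2-KO, while Trp63, a defining basal factor, was lower in both deletion groups than in control. The fibroblast markers (7 genes) summed to 2438, 4347 and 9561 in control replicates 1 to 3 and to 10150, 2602 and 3241 in LATS1/2-KO replicates 1 to 3, led by Dcn in control and by Col3a1 in LATS1/2-KO replicates 1 and 2. In LATS1/2-Sox9-KO they summed to 2916 to 7533. The adipocyte markers (4 genes) were at 3.48 to 12.5 in control and at 7.02, 821 and 431 in LATS1/2-KO, led by Cidec in replicates 2 and 3, and at 32.5, 212 and 159 in LATS1/2-Sox9-KO. Plin1 and Cidec were at 0 in LATS1/2-KO replicate 1. The immune markers (8 genes) summed to 682 to 1090, 2085 to 4307 and 3462 to 4758, led by Csf1r in every deletion library, with Cd3e at 0 throughout. The endothelial markers (5 genes) stayed between 243 and 756 in all libraries. Against control, the genes that passed as higher and lower numbered 1 and 4 of the 10 secretory markers in LATS1/2-KO and 0 and 8 in LATS1/2-Sox9-KO. They numbered 3 and 2, then 3 and 4, of the 7 basal markers, and 4 and 1, then 3 and 2, of the 7 fibroblast markers. For the 5 endothelial markers they were 1 and 0, then 1 and 1, for the 5 tested immune markers 1 and 0, then 2 and 0, and for the 4 adipocyte markers 3 and 0 in both groups. Of the 4 pan-luminal genes, 2 rose and 2 fell in LATS1/2-KO, and 2 rose and 1 fell in LATS1/2-Sox9-KO. Over all tested genes, 28.7% passed as higher and 27.1% as lower in LATS1/2-KO, and 29.3% and 28.7% in LATS1/2-Sox9-KO, and several of these marker counts are near those shares. The part of these differences in the values of the 7 genes was not tested.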

How the data were processed

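RNA was sequenced from FACS-isolated EYFP+ mammary cells of 3 genotypes with 3 libraries each. Alignment by the authors used STAR 2.6.0c and mm10, and they deposited raw counts of uniquely aligned proper pairs per gene of Ensembl 100, made with featureCounts of Subread 1.6.2, with same-strand counting and without mitochondrial genes. Of 55450 gene IDs, 55190 were matched to a symbol. Counts were analysed in R 4.3.3 with edgeR 4.0.16: TMM factors, filterByExpr (19357 genes kept) and a quasi-likelihood fit over all 9 libraries, with Benjamini-Hochberg adjustment over all tested genes. A gene passed at an adjusted p of at most 0.05 and was called if its log2 fold change also exceeded 1 in size. Standard errors were derived from the F statistic. Exon lengths for RPKM came from GENCODE M21 and promoters from RefSeq on GRCm38.p6. The fit was tested on simulated data. An exact two-sided permutation test of 3 against 3 libraries cannot go below p = 0.1, so none was used. At 44167762 or more counts per library, depth limits precision mainly for genes near 0, and these counts carry no molecular identifiers.

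The 7 genes and all gene lists were chosen with earlier results of these data known. Named were the 7 genes, the 4 genes with the highest mean normalized count of each list, Esr2 and Nr3c2, the marker genes, and for each of the 7 the 3 genes with the most similar profile, among tested genes averaging 100 normalized counts or more. The alternatives were RLE and upper-quartile factors, other filters on low counts, DESeq2 1.42.0, a test against a 2-fold change, the replicate number as a block, a GC offset (lowess span 0.3), a fit of the compared groups alone, and leaving out each library. The count table was used whole, with no library left out of the reported fit. Some genes that this rule names are not reported here.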

Additional observations from a re-analysis of the deposited data

How the results depend on the processing

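Of 480 values for the 7 genes and for counts of called genes under the alternatives, 439 were kept. For a gene, kept means the same direction and side of the threshold. For a count of called genes, it means a number within a set ratio of the reported one. Of 1382 values for genes of the lists, 1266 kept their direction and their side of the threshold. Greb1 and Cited1 gave no value with at least 10 counts required in every library. With no filter on low counts the log2 fold change of Ncoa3 in LATS1/2-Sox9-KO against control was -0.348 and no longer passed, while Greb1 (-4.784) and Cited1 (-3.644) passed between the deletion groups. DESeq2 passed both of these too (-4.884 and -3.715), and called 479 genes higher and 730 lower in LATS1/2-Sox9-KO than in LATS1/2-KO, against 301 and 418 in edgeR. A test against a 2-fold change called 1962 higher and 2043 lower in LATS1/2-KO, 2240 and 2468 in LATS1/2-Sox9-KO, and 18 and 14 between the deletion groups, and under it Nr3c1 (1.106) and Ncoa2 (-1.224) in LATS1/2-KO, Ncoa2 (-1.168) in LATS1/2-Sox9-KO, Ncoa3 in both (-0.556 and -0.392) and Pgr between the deletion groups (-3.429) no longer passed. Fitting the 2 groups alone gave -0.384 for Ncoa3 in LATS1/2-Sox9-KO, which no longer passed.

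Same-numbered libraries correlated in their deviations from the group means at r = -0.066 to 0.17. The highest value of all pairs was 0.17, between replicates 2 of the deletion groups, followed by 0.105 between their replicates 1. Their replicates 3 gave -0.032. Differently numbered libraries of different groups gave -0.164 to 0.064. The labels do not say whether the numbers pair the libraries, and this was not tested. With the replicate block Greb1 passed between the deletion groups (-4.687), Cited1 in LATS1/2-KO moved to -5.97, and no other call of the 7 genes changed.

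Leaving out one library at a time gave 121 to 497 genes called higher and 78 to 582 lower between the deletion groups. Over the same fits, the log2 fold change between them ranged from -3.823 to -2.767 for Pgr, -5.551 to -3.88 for Greb1, -4.242 to -2.091 for Cited1, -0.357 to 0.266 for Esr1 (positive only without LATS1/2-KO replicate 1) and -0.01 to 0.199 for Ncoa2 (negative only without LATS1/2-KO replicate 2). Pgr no longer passed without LATS1/2-Sox9-KO replicate 2 (-3.063). Greb1 passed without control replicate 3 (-4.803) or LATS1/2-KO replicate 2 (-5.354), and Cited1 passed without LATS1/2-KO replicate 2 (-4.214). Ncoa3 in LATS1/2-Sox9-KO against control ranged from -0.555 to -0.283. Of the listed genes, Rarg reversed in LATS1/2-Sox9-KO against control (-0.013 with RLE factors and with DESeq2, -0.001 with upper-quartile factors, -0.011 with at least 10 counts in every library, and -0.066 to 0.092 over the fits that leave out one library, negative without control replicate 3 (-0.043) and without LATS1/2-Sox9-KO replicate 1). The GC offset reversed Rarg (0.217) and Hspa4 (-0.141) in LATS1/2-KO, and Hspa4 (-0.075) and Pgrmc1 (-0.146) in LATS1/2-Sox9-KO, where Rarg passed as higher (0.482). The cause was not tested. Depth limits Greb1, Cited1 and Pgr in LATS1/2-Sox9-KO, where raw counts were 0 to 66.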

Other observations

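Other nuclear receptors, which bind lipids, thyroid hormone, vitamins or no known ligand, fell more often than they rose. Of 40 listed, 28 were tested, and 3 rose, 18 fell and 7 did not pass in LATS1/2-KO (median log2 fold change -1.06, against 0.04 over all tested genes, of which 27.1% passed as lower), while 2 rose, 20 fell and 6 did not pass in LATS1/2-Sox9-KO, where 28.7% of all tested genes passed as lower. Nr4a1, an orphan receptor induced early by many stimuli, had 36040, 31350 and 26380 normalized counts in control and 4848, 2940 and 3754 in LATS1/2-KO (log2 fold change -3.02, SE 0.33, adjusted p = 4.69e-05 by the quasi-likelihood test of edgeR, Benjamini-Hochberg adjusted). Vdr, the vitamin D receptor, rose in LATS1/2-KO (1.009, adjusted p = 0.0129 in edgeR with Benjamini-Hochberg adjustment), a call lost without LATS1/2-KO replicate 2 (0.68). The liver X receptor beta gene Nr1h2 fell (-0.69 and -0.64), but passed in neither comparison under a GC offset (-0.15 and -0.13). Rarg had a log2 fold change of -0.31 in LATS1/2-KO that turned positive under that offset (0.22). Its decrease no longer passed without any one of 6 libraries (-0.32 to -0.27). The same loss occurred with upper-quartile factors (-0.269), no filter on low counts (-0.297), the replicate block (-0.307) and a fit of the 2 groups alone (-0.285).

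Of 11 tested genes of steroid metabolism, 5 rose, 2 fell and 4 did not pass in LATS1/2-KO, and 5 rose, 1 fell and 5 did not pass in LATS1/2-Sox9-KO, beside 28.7% and 29.3% of all tested genes that passed as higher. The 17-beta-hydroxysteroid dehydrogenase genes Hsd17b12 (log2 fold changes 1.24 and 1.58) and Hsd17b7 (2.14 and 2.51), which also serve fatty acid and cholesterol synthesis, rose in both, and Hsd17b11 fell in both (-0.74 and -1.13). Hsd17b4 did not pass (-0.13 and -0.26). Cyp19a1, the aromatase gene that makes estrogens, had 0 counts in all 9 libraries and was singled out after its values were seen.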
